A study of Mus musculus with 10 samples.

Results

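Mitosis is run by a set of proteins that most dividing cells make only late in the cell cycle. CDK1 with its cyclins starts it, Polo-like and Aurora kinases build the spindle, kinetochore proteins tie chromosomes to microtubules, the spindle checkpoint holds back the anaphase-promoting complex (APC/C) until all chromosomes are attached, and separase then cuts the cohesin rings that hold sister chromatids together. Natural killer cells (NKC) are innate lymphocytes that rest in the spleen and divide when cultured with IL-2 or IL-15, and Runx3 is a transcription factor of cytotoxic lymphocytes. A list of 46 genes of mitosis and chromosome segregation was followed here in NKC with and without Runx3. A gene was taken from the array where it was the single symbol of a probe set, the probe set with the highest mean over all arrays stood for it, and it had to reach log2 5 in at least 2 arrays. Of the 46 genes, 45 were found in this way and all 45 reached that level, out of 9391 genes tested and 18194 named genes in all. The one left out was Ccnb1 (cyclin B1).

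RNA was hybridised to 10 Affymetrix mouse arrays. NKC were enriched from spleens of ICR mice aged 6 weeks by removal of other cells, followed by a sort on the NK surface antigen DX5 described in the methods of the study. They were kept for 7 days with human IL-2 at 1000 u/ml or with mouse IL-15, after which, by the same methods, nearly all carried the NK receptor NKp46. The groups were Runx3 +/+ (WT) in IL-2 with 3 arrays, Runx3-/- (KO) in IL-2 with 3 arrays, and WT and KO in IL-15 with 2 arrays each. Each array came from an individual mouse, and the labels name no Cre driver for the Runx3 deletion. They give sex as male or female. All values are log2 signals. The deposited values of a WT array and the KO array of the same number added up, probe set by probe set, to the same sum for every number in a cytokine, within 0.00014. Differences between pairs had thus been removed before deposit. A consequence is that KO arrays lie above all WT arrays of a cytokine exactly when KO is above WT in each pair, and the spread between pairs is seen only in the KO minus WT difference.

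The Runx3 probe set read 11.31 to 12.06 in WT and 10.66 to 11.41 in KO with IL-2, and 12.45 to 12.51 against 11.35 to 11.41 with IL-15. Whether it lies in the deleted part is not known, so it does not check the genotype. Of 9 NK cell markers with a named probe set, 8 had group means of at least log2 5 in every group, and the exception was Itga2, the gene of the DX5 antigen used in the sort, at 2.20 to 2.45. Ncr1, which encodes NKp46, had group means of 9.58 to 12.09. Of 8 T cell markers, 4 reached it in every group. Group means were 11.17 to 12.58 for Cd28, 6.13 to 7.13 for Cd3d and 5.43 to 6.99 for Cd3e. Cd3g had means of 8.74 in WT and 8.18 in KO with IL-2, and of 10.26 and 8.13 with IL-15. The means of Cd4, Cd8a, Cd8b1 and Cd5 were at most 3.85. No B cell marker of 4 reached log2 5. The summed macrophage markers spanned 7.97 to 10.58 in WT and 8.6 to 10.57 in KO with IL-2. Among them, Cd14 had group means of 7.68 in WT and 3.79 in KO with IL-2, and Csf1r of 7.75 and 6.19. Lyz2 went the other way, at 5.07 and 7.97, as did Cd68, at 6.88 and 8.1. With IL-15 the sums spanned 8.73 to 9.44 in WT and 7.73 to 8.95 in KO. There, Lyz2 had means of 2.41 in WT and 5.95 in KO, and Cd68 of 8.85 and 7.15. All IL-15 arrays had Xist at 14.28 to 14.66 and Eif2s3y at 2.35 to 2.44, and all IL-2 arrays had Xist at 4.65 to 5.37 and Eif2s3y at 7.31 to 9.17, so that the sex of the mice and the cytokine cannot be told apart.

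Promoters of mitosis genes are known for the cell cycle genes homology region (CHR), an element that the DREAM and B-MYB complexes bind, often with CCAAT boxes close by. RefSeq windows (GRCm38.p6) from 250 bases before to 50 bases after the start were at hand for 38 of the 46 genes, in 40 windows. The letters TTTGAA or TTCGAA, on either strand, were in 80% of these windows and in 19.2% of all 32851 windows of that length. CCAAT on either strand was in 80% against 37.4%, and both elements together in 72.5% against 7.52%. RUNX letters (TGTGGT and TGTGGC as well as the forms TGCGGT and also TGCGGC, either strand) were in 45% of the windows of mitosis genes and in 45.2% of all. CHR letters were in 82.4% of 17 windows of genes called higher in KO with IL-2 and in 81.8% of 22 windows of genes not called. For CCAAT the shares were 82.4% and 77.3%, and for RUNX letters 29.4% and 59.1%. Differences between these shares were not tested. The promoters of Plk1, Ube2c and Cdk1 are shown. They were picked from the CHR holders with the highest KO minus WT differences in IL-2, as their bases lie outside the gene's own annotated span. Capitals mark CHR letters and CCAAT boxes, and the last base is the one before the start. The CHR letters of Plk1 begin 31 bases into the gene and are not in the bases shown.
Plk1 chr7:122159285-122159434, plus strand: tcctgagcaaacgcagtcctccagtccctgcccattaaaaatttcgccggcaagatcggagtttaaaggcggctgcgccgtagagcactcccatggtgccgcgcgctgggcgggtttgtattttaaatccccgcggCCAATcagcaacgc
Ube2c chr2:164769779-164769928, plus strand: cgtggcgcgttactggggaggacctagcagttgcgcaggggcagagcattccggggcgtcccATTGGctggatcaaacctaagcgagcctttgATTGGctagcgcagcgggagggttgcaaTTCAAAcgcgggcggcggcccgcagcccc
Cdk1 chr10:69352913-69353062, minus strand: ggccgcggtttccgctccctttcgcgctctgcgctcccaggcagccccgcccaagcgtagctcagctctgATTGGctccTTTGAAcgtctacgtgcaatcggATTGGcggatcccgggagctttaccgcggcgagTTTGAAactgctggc
In Cdk1, CHR letters begin 71 and 15 bases before the start, and in Ube2c 29 bases before it, each with a CCAAT box (written ATTGG on the strand shown) further upstream.

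In IL-2, 21 of the 45 mitosis genes were higher in KO NKC and 0 lower at an adjusted p under 0.05 with a difference of at least 1.5-fold (limma with the pair as block, Benjamini-Hochberg over 9391 genes). Over all tested genes, 10.5% were called higher and 9.17% lower. The median log2 difference was 1.32 over the mitosis genes and 0.11 over all genes, with mitosis genes from -0.59 to 2.33. With no filter on low values, which raised the number of genes adjusted over to 18194, 7 were called higher, against 2.75% of all genes. An unadjusted p under 0.05 with 1.5-fold was reached by 28, all higher in KO, and by 20.4% of all genes in that direction. In bulk RNA, a higher share of dividing cells and more of these RNAs per cell cannot be told apart. KO stood above WT in all 3 pairs for 28 of the 45 genes, where 31.1% of all tested genes did so, and below WT in all 3 pairs for 0.

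The pairs were unequal. The median difference of the 45 genes was 0.70 in pair 1, 0.65 in pair 2 and 2.36 in pair 3, against medians of all genes of 0.29, 0.01 and 0.03. In pair 3 all 45 genes were higher in KO, and that pair gave the highest of the 3 differences for 44 of them (30.8% of all genes had it there). Leaving out pair 3 left 15 genes called higher, all among the 21, and added Cenpe and Cenpf as called lower (9.46% of all genes were then called higher and 6.78% lower). Leaving out pair 1 left 7, with 2.69% of all genes called higher: Cdc25b, Plk1, Aurkb, Cdca8, Espl1, Spc24 and Ncapd2. Leaving out pair 2 left 15 (5.87% of all genes), and leaving out either IL-15 pair also left 15 (7.11%). The signal of the Gapdh control probe sets, 5′ minus 3′, was -0.86 to -1.09 in WT and -1.27 to -1.51 in KO with IL-2, while that of Actb was -1.54 to -1.58 and -1.47 to -1.51; their part in these differences was not tested.

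**Figure D1:**
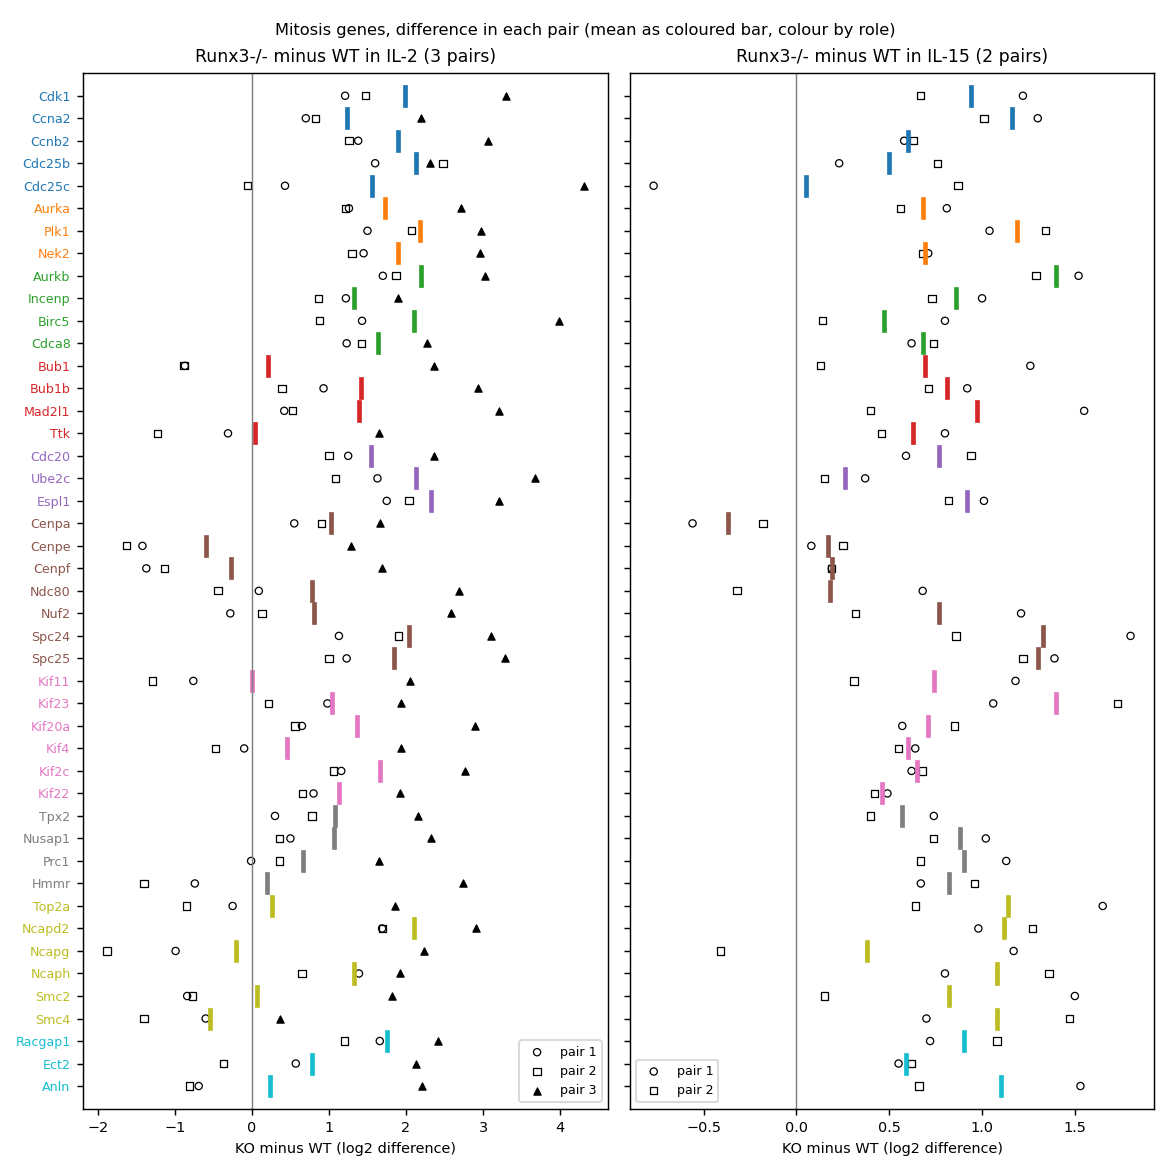
Log2 difference KO minus WT of each of the 45 mitosis genes in the 3 IL-2 pairs (left) and the 2 IL-15 pairs (right). Symbols are pairs, the coloured bar is their mean, and colours and order follow the roles from CDK1 with its partners at the top to cytokinesis at the bottom; the filled triangles of pair 3 lie furthest right for 44 of 45 genes.

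CDK1 is the kinase whose activity defines mitosis, its cyclins Ccna2 and Ccnb2 activate it, and the phosphatases Cdc25b and Cdc25c remove the phosphates that hold it back. Of these 5 genes 4 were called higher in KO with IL-2. Cdc25b read 9.27, 8.82 and 8.91 in the WT arrays and 10.87, 11.31 and 11.22 in the KO arrays. The groups did not overlap, and the difference was 2.13 ± 0.47 (SD, n = 3 pairs), or 4.38-fold, with an adjusted p of 0.0055. With IL-15 it read 10.20 and 9.93 in WT and 10.43 and 10.69 in KO. Cdk1 differed by 1.99 ± 1.13 (adjusted p = 0.0224), Ccnb2 by 1.90 ± 1.0 (0.0188) and Ccna2 by 1.24 ± 0.83 (0.049). Cdc25c was not called: its differences were 0.43, -0.06 and 4.31 in the 3 pairs, so the mean of 1.56 rested on pair 3 (adjusted p = 0.223).

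The kinases of the spindle poles, Plk1, Aurka and Nek2, which drive the maturation and separation of centrosomes, were all called higher. Plk1 read 10.09, 9.80 and 9.35 in WT and 11.59, 11.88 and 12.33 in KO with IL-2. This was a difference of 2.18 ± 0.75 (SD, n = 3 pairs), 4.54-fold, with an adjusted p of 0.00775 and no overlap between groups. In IL-15 its arrays stood at 9.60 and 9.45 in WT and 10.64 and 10.79 in KO. Nek2 differed by 1.90 ± 0.92 (adjusted p = 0.0158) and Aurka by 1.73 ± 0.86 (0.0187).

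The chromosomal passenger complex consists of the kinase Aurora B (Aurkb) and its partners Incenp, survivin (Birc5) and borealin (Cdca8), and corrects wrong attachments to the spindle. All 4 were called higher in KO with IL-2. Aurkb read 11.04, 10.96 and 10.38 in WT and 12.75, 12.83 and 13.41 in KO, a difference of 2.20 ± 0.72, or 4.61-fold (adjusted p = 0.00708). It read 10.15 and 10.27 in WT and 11.67 and 11.56 in KO with IL-15, so in neither cytokine did the genotypes overlap. Cdca8 differed by 1.64 ± 0.55 (adjusted p = 0.0116) and Incenp by 1.32 ± 0.52 (0.0216). Birc5 differed by 1.43, 0.88 and 3.98 in the 3 pairs, with an adjusted p of 0.0464 for the mean of 2.10.

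None of the 4 spindle checkpoint genes passed the test by limma, while 2 of them, Bub1b and Mad2l1, had an unadjusted p under 0.05. Bub1b encodes BubR1, which with Mad2 (Mad2l1) makes up the inhibitor of the APC/C, and Bub1 and Ttk (Mps1) are kinases that start the checkpoint at kinetochores. Bub1b read 8.80, 9.06 and 7.79 in WT and 9.72, 9.45 and 10.73 in KO with IL-2. KO was above WT in each pair, by 0.93, 0.39 and 2.93 (mean 1.42 ± 1.34, adjusted p = 0.0813), and with IL-15 the arrays read 9.27 and 9.37 in WT and 10.18 and 10.08 in KO. Bub1 differed by -0.87 and -0.88 in pairs 1 and 2 and by 2.36 in pair 3. Ttk followed the same signs, with -0.31, -1.22 and 1.65.

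On the other side of the checkpoint, the APC/C activator Cdc20, the APC/C's ubiquitin-conjugating enzyme Ube2c and separase (Espl1) were all called higher in KO with IL-2. Espl1 had the highest difference of the 45 genes. It read 9.06, 8.92 and 8.33 in WT and 10.81, 10.95 and 11.54 in KO, 2.33 ± 0.77 apart or 5.03-fold (SD, n = 3 pairs, adjusted p = 0.00658), with no overlap. The IL-15 arrays gave 8.74 and 8.83 in WT and 9.75 and 9.66 in KO. Ube2c differed by 2.13 ± 1.36 (adjusted p = 0.0263) and Cdc20 by 1.54 ± 0.72 (0.0211).

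Of the 7 centromere and kinetochore genes 2 were called, both of them subunits of the NDC80 complex, which grips microtubules. Spc24 read 10.38, 9.99 and 9.39 in WT and 11.50, 11.89 and 12.49 in KO with IL-2, a difference of 2.04 ± 0.99 or 4.12-fold (adjusted p = 0.0183). With IL-15 it read 8.79 and 9.26 in WT and 10.58 and 10.11 in KO. Spc25 differed by 1.84 ± 1.26 (adjusted p = 0.0347). The other two subunits of that complex were not called. Ndc80 differed by 0.09, -0.44 and 2.69 in the 3 pairs (mean 0.78, adjusted p = 0.382, and -0.17 without pair 3), and Nuf2 by -0.28, 0.13 and 2.58 (mean 0.81, adjusted p = 0.333). Whether they differ from Spc24 and Spc25 was not tested. Cenpa, the centromeric histone H3 variant, was higher by 1.03 ± 0.57 at an adjusted p of 0.0514. Cenpe, a kinetochore motor, and Cenpf, a large kinetochore and nuclear matrix protein, had negative means of -0.59 and -0.27, and that of Cenpf was 0.28 without pair 1 and 0.16 without pair 2.

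Among 6 mitotic kinesins, Kif2c, which takes microtubules apart at centromeres, and Kif22, which pushes chromosome arms, were called. Kif2c read 9.81, 9.86 and 9.0 in WT and 10.97, 10.92 and 11.78 in KO with IL-2, a difference of 1.66 ± 0.96 (adjusted p = 0.0263), and 10.76 and 10.73 against 11.38 and 11.41 with IL-15. Kif20a and Kif23, motors of the central spindle, differed by 1.37 ± 1.33 and 1.04 ± 0.86 without passing the test. Kif11, the motor that pushes spindle poles apart, had a mean of 0.00, made of -0.76, -1.29 and 2.05. Of the 4 spindle assembly genes, Tpx2, Nusap1, Prc1 and Hmmr, 0 were called by limma, and Tpx2 and Nusap1 had an unadjusted p under 0.05. Tpx2, which activates Aurora A, read 9.27, 9.03 and 8.34 in WT and 9.57, 9.81 and 10.50 in KO with IL-2 (1.08 ± 0.96, adjusted p = 0.0912), and 9.46 and 9.63 against 10.20 and 10.03 with IL-15.

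Of 6 genes of chromosome condensation 2 were called, Ncapd2 and Ncaph of condensin I. Ncapg of the same complex, its core subunits Smc2 and Smc4 and topoisomerase II alpha (Top2a) were not, and differences between these genes were not tested. Top2a had a mean of 0.26 ± 1.42 in the probe set used and of 1.68 ± 1.56 in its other one. Ncapd2 read 8.92, 8.91 and 8.31 in WT and 10.60, 10.61 and 11.22 in KO with IL-2, a difference of 2.10 ± 0.70 or 4.28-fold (adjusted p = 0.00786), and 9.06 and 8.92 against 10.04 and 10.19 with IL-15. Ncaph differed by 1.32 ± 0.64 (adjusted p = 0.0304). Smc4, in contrast, read 9.98, 10.37 and 9.49 in WT and 9.37, 8.97 and 9.86 in KO with IL-2, overlapping, with a mean of -0.54 (adjusted p = 0.344). Ncapg read 6.39, 6.84 and 4.78 in WT and 5.40, 4.96 and 7.02 in KO, a mean of -0.21 that was 0.18 without pair 1 and 0.62 without pair 2. The other Ncapg probe set, of a mean level of 6.17 against 6.66, gave -0.81 ± 0.33 and was lower in KO in each pair.

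In cytokinesis, Racgap1, a GTPase-activating protein of the central spindle, was called, and Ect2, the exchange factor that activates RhoA, and Anln (anillin) were not. Racgap1 read 9.79, 10.02 and 9.41 in WT and 11.45, 11.22 and 11.83 in KO with IL-2, a difference of 1.76 ± 0.62 or 3.39-fold (adjusted p = 0.0111). With IL-15 its values were 11.07 and 10.89 in WT and 11.79 and 11.97 in KO, above the WT arrays of the same cytokine in both pairs.

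**Figure D2:**
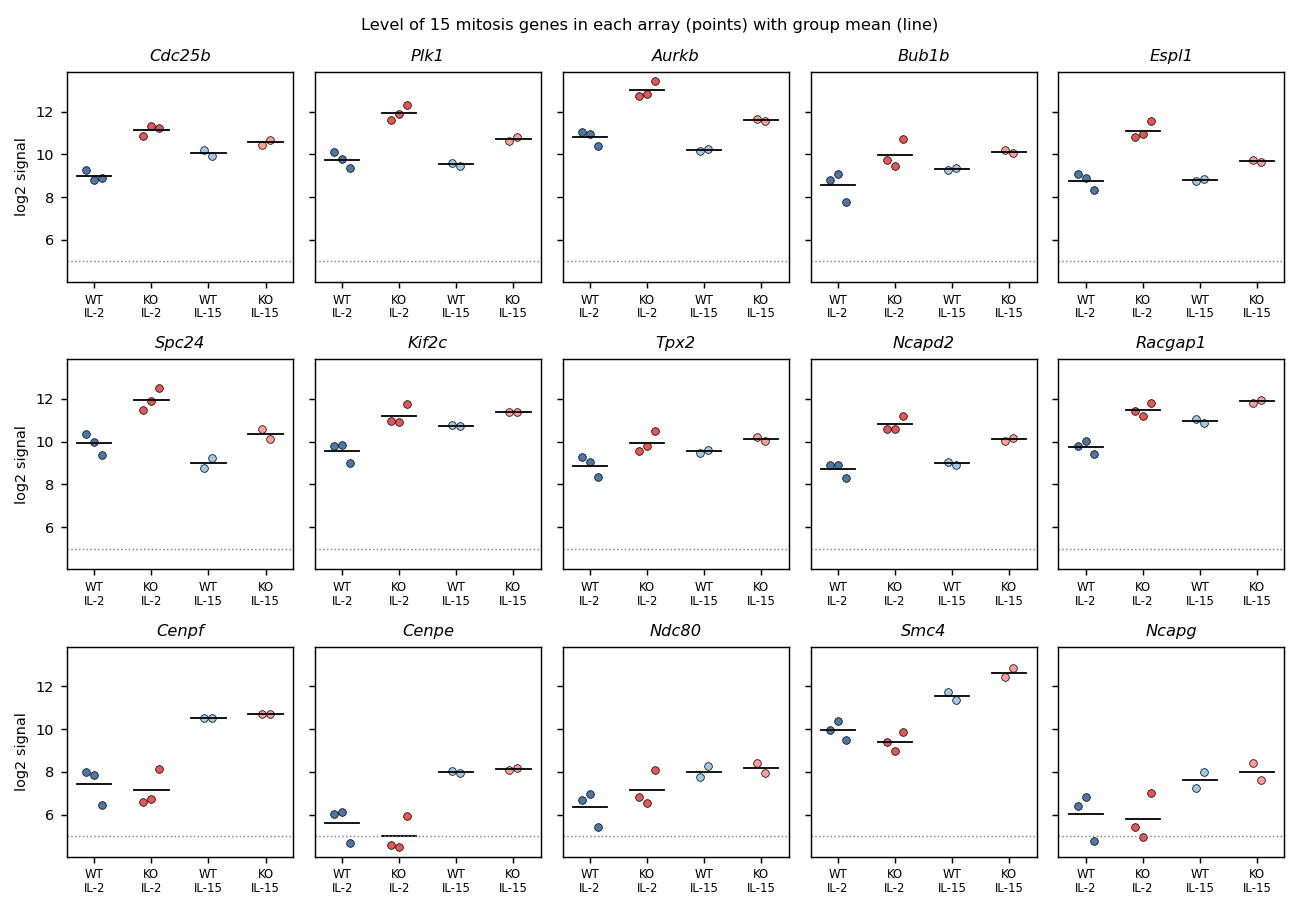
Log2 signal of 15 mitosis genes in each array (points) by group; lines mark group means and the dotted line is the floor of log2 5. The first 10 are the genes with the largest KO minus WT difference in IL-2 of their role, and the last 5 have the largest IL-15 minus IL-2 difference in WT; Cenpf, Cenpe, Ndc80, Smc4 and Ncapg overlap between genotypes in IL-2 and have higher means in IL-15 in the probe sets plotted.

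In the probe sets used, KO lay below WT in pairs 1 and 2 and above it in pair 3 for 12 genes in IL-2. These were Bub1, Ttk, Cenpe, Cenpf, Kif11, Kif4, Hmmr, Top2a, Ncapg, Smc2, Smc4 and Anln. Among all tested genes 7.05% had that pattern. Not every further probe set of these genes shared it. Another of Top2a was higher in KO in each pair (mean 1.68). Others of Ncapg (-0.81), Smc4 (-1.25) and, under log2 5 in IL-2, Smc2 (-0.22) were lower in KO in each pair. Cenpe read 6.01, 6.11 and 4.65 in WT and 4.58, 4.48 and 5.94 in KO with IL-2, under log2 5 in 3 of these arrays. Cenpf read 7.97, 7.85 and 6.44 in WT and 6.60, 6.72 and 8.13 in KO. In both, the WT array of pair 3 was the lowest of WT and the KO array of pair 3 the highest of KO. With equal sums of same-number arrays, each of these follows from the other. Since pair differences had been removed, the data do not tell which of the 2 arrays of pair 3 stood apart.

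With IL-15, KO stood above WT in both pairs for 41 of the 45 genes, where 31.7% of all tested genes did so, and below in both for 1, Cenpa. The median difference was 0.77 against -0.01 over all genes, with pair medians of 0.80 and 0.67. No mitosis gene was called by limma in this comparison, in which 0.458% of all genes were called higher and 0.841% lower. The spread in this test was estimated for each gene from the pairs of both cytokines together, so the unequal IL-2 pairs enter it. At an unadjusted p under 0.05 with 1.5-fold, 9 were higher: Ccna2, Plk1, Aurkb, Incenp, Spc24, Kif23, Ncapd2, Ncaph and Racgap1 (5.8% of all genes). The lowest adjusted p was 0.172, for Aurkb at 1.40. The difference was at least 1.5-fold upward for 34 of the 45 and for 13.9% of all genes. Kif23 had the same mean, 1.40 (1.06 and 1.73), and Spc24 differed by 1.80 and 0.86. KO was above WT in all 5 pairs of both cytokines for 27 genes, against 17.6% of all genes. The Gapdh control, 5′ minus 3′, was -0.96 and -0.14 in WT and -1.72 and -2.55 in KO with IL-15; its part was not tested.

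Whether the KO effect differed between cytokines was tested directly. By limma 0 of 45 genes were called in either direction, as were 0% of all genes (lowest adjusted p among mitosis genes 0.305). At an unadjusted p under 0.05 with 1.5-fold, Smc4 had a higher KO effect in IL-15 than in IL-2, by 1.62 (4.62% of all genes were higher), and 4 had a lower one (7.16% of all genes): Ube2c by -1.87, Cdc25b by -1.63, Espl1 by -1.41 and Cenpa by -1.40.

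Levels in IL-15 and IL-2 were compared within each genotype on 5 arrays. Sex cannot be told apart from cytokine here, and because pair differences had been removed, the p-values are too small by an unknown amount. In WT, 15 of the 45 genes were called higher in IL-15 and 0 lower, against 28.8% and 18.2% of all genes, with a median of 0.83 (0.18 over all genes). Quantile normalization gave 8 higher and 2 lower, with 22.3% and 26% of all genes, and no filter on low values 6 higher, with 11.8%. Without IL-2 replicate 1 the count called higher was 9 (21.3% of all genes), without IL-15 replicate 1 it was 3 (17.6%) and without IL-15 replicate 2 it was 6 (16%). Without IL-2 replicate 3, 16 were called higher (28.7% of all genes) and 2 lower (17.7%). Cenpf, at 10.49 and 10.49 in WT with IL-15, was 3.07 above its WT level in IL-2 (adjusted p = 0.00265). Cenpe, at 8.02 and 7.93, was 2.39 above (adjusted p = 0.00554). Ndc80 read 6.70, 6.97 and 5.40 in WT with IL-2 and 7.75 and 8.25 with IL-15, and Smc4 read 11.75 and 11.36 with IL-15; they were 1.64 and 1.61 above (adjusted p = 0.0266 and 0.00559). Ncapg read 7.22 and 8.01 with IL-15 and was 1.61 above at an adjusted p of 0.063, which did not pass. Its other probe set, of a mean level of 6.17 against 6.66, gave the opposite sign, -0.84.

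In KO, 13 genes were called higher in IL-15 and 6 lower, against 23.1% and 21.4% of all genes, with a median of 0.16 (-0.08 over all genes). The 6 lower were Cdk1, Aurka, Plk1, Aurkb, Espl1 and Spc24, from -0.97 for Aurka to -1.61 for Spc24. Their KO minus WT differences in IL-2, 1.73 to 2.33, rest on some of the same arrays. The higher ones included Cenpf (3.53), Smc4 (3.24) and Cenpe (3.14), whose KO arrays with IL-15 read 10.69 and 10.69, 12.45 and 12.83, and 8.10 and 8.18. Ndc80 read 6.80, 6.53 and 8.10 in KO with IL-2 and 8.43 and 7.93 with IL-15, and Ncapg 8.39 and 7.60 with IL-15. With no filter on low values 4 were called higher, with 9.44% of all genes. The count called higher was 8 without IL-2 replicate 1 (21.4% of all genes), 5 without IL-15 replicate 1 (14.1%) and 8 without IL-15 replicate 2 (15.1%), and the count called lower was 3 without either IL-15 replicate (11.4% and 9.67%). Summed T cell markers were 11.44 to 12.05 in WT and 11.23 to 11.87 in KO with IL-2, and 12.30 to 12.85 and 12.58 to 12.83 with IL-15. Summed dendritic cell markers, of which Itgax and Zbtb46 alone of 5 reached log2 5, were 7.16 to 8.72 and 7.62 to 9.98 with IL-2 and 9.47 to 10.08 and 9.11 to 9.68 with IL-15. The sort on DX5 named in the methods came before the culture. The part of these markers in the cytokine differences was not tested.

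**Figure D3:**
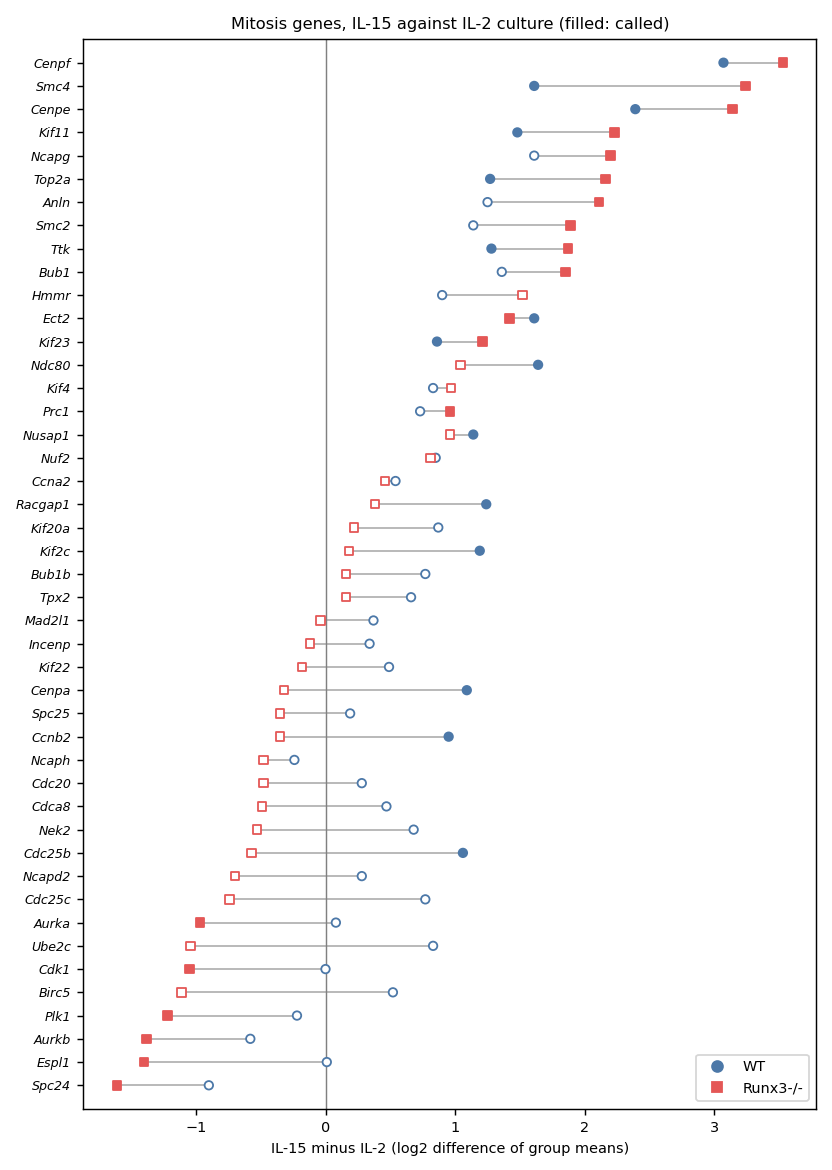
Log2 difference IL-15 minus IL-2 of the group means for each mitosis gene, in WT (circles) and KO (squares), filled where called and ordered by the KO difference. Cenpf, Smc4 and Cenpe are at the top in KO at 3.14 to 3.53, and Spc24 is at the bottom at -1.61.

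The 28 genes higher in all 3 IL-2 pairs had a median IL-15 minus IL-2 difference of 0.50 in WT and -0.42 in KO. The 12 genes higher in pair 3 alone had medians of 1.32 and 2.13. These values share the IL-2 arrays that placed the genes in the groups. The groups rest on the probe set used for each gene, and further probe sets did not always follow them.

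Other mitosis genes, in 5 further lists of 98 tested genes, were counted in the same way. In IL-2, 17 were called higher in KO and 6 lower (17.3% and 6.12%), with a median of 0.63. The shares of all tested genes, to be set beside each list in IL-2, were 10.5% higher and 9.17% lower. Spindle and cytokinesis genes gave 8 of 20 higher, led by Fam83d (2.61), a spindle protein, and Ccnf (2.53), an F-box cyclin. Kinetochore and centromere genes gave 6 of 29 higher, led by Cenpm (2.38) and Nsl1 (2.37). Mitotic entry regulators and transcription factors gave 3 of 15, led by Foxm1 (2.51 ± 0.39, adjusted p = 0.00297), a transcription factor of late cell cycle genes, and Wee1 (1.45), the kinase that restrains CDK1. Further checkpoint and anaphase genes gave 0 of 21 higher and 2 lower, the APC/C subunits Anapc4 (-1.23) and Cdc16 (-0.94). Cohesin and condensin II genes gave 0 of 13 higher and 4 lower, with Stag1 (-1.73), a cohesin subunit, and Nipbl (-1.45), the cohesin loader, lowest. Of these 13, 9 were called higher in IL-15 than in IL-2 in WT (28.8% of all genes) and 12 in KO (23.1%). Stag1 was higher by 3.87 in KO. In IL-15, 0 of the 98 were called between genotypes by limma (0.458% of all genes higher and 0.841% lower), with a median of 0.46. DNA replication genes, counted for comparison, gave 13 of 34 higher in KO with IL-2 (median 1.40), led by Uhrf1 (2.59) and Pold1 (2.09), and had medians of 0.84, 0.69 and 2.43 in pairs 1, 2 and 3. Of these 34, 17 were called lower in IL-15 than in IL-2 in WT (18.2% of all genes) and 20 in KO (21.4%).

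**Figure D4:**
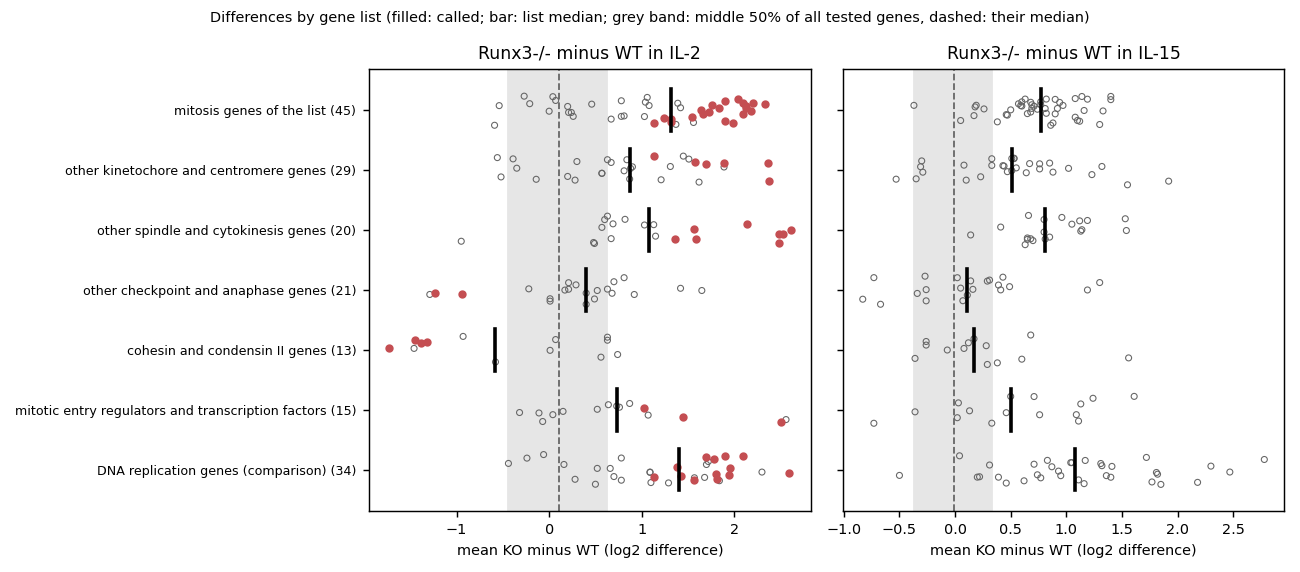
Mean log2 difference KO minus WT in IL-2 (left) and IL-15 (right) for the 45 mitosis genes, the 5 further lists and DNA replication genes; each point is a gene, filled where called, and the bar is the list median. The grey band holds the middle 50% of all 9391 tested genes, and the list medians in IL-2 run from -0.58 for cohesin and condensin II genes to 1.40 for DNA replication genes.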

How the data were processed

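RNA of 10 cultures was measured on Affymetrix mouse arrays. The deposited log2 values were made by the authors with GC-RMA in Partek, per the labels. Same-number WT and KO arrays summed to equal values (largest range 0.00014 with IL-2 and 0.00013 with IL-15, against median ranges of 0.324 and 0.17 for other pairings), and the labels do not mention this step. Of 45101 probe sets, 34958 had 1 gene symbol in the platform annotation. KO minus WT was fitted with limma 3.58.1 (R 4.3.3) on all 10 arrays with the pair as block, and IL-15 minus IL-2 on the 5 arrays of a genotype. A call needed an adjusted p (Benjamini-Hochberg) under 0.05 and 1.5-fold. Scripts were tested on simulated data. Alternatives were scaling, filter, probe set choice, eBayes settings, the study's thresholds, the block and leaving out arrays. Values in every array were given for the gene with the largest KO minus WT difference in IL-2 of each of 10 roles and for 5 genes with the largest IL-15 minus IL-2 difference in WT; of other lists, at most the 2 highest and 2 lowest called were named. Promoters were printed for CHR holders with the largest differences in IL-2, none overlapping the gene's own annotated span. Genes and lists were chosen with earlier results of these data known. The number of arrays limits the precision.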

Additional observations from a re-analysis of the deposited data

How the results depend on the processing

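With IL-2, 21 mitosis genes called higher in KO became 28 with no replicate block and 7 with no filter on low values. Leaving out replicates gave 7 to 15 higher and 0 to 2 lower. With IL-15, 0 called became 8 with no replicate block and 9 at the study's thresholds (unadjusted p under 0.05 with 1.5-fold). The median difference of 0.77 became 0.6 with the mean of all probe sets and was 0.67 to 0.80 without a replicate. For the difference between cytokines in the KO effect, 3 were lower with no replicate block, and 1 was higher and 4 lower at the study's thresholds. IL-15 minus IL-2 in WT gave 8 higher and 2 lower after quantile normalization, 6 higher with no filter, 1 lower at the study's thresholds and 1 lower with trended, robust eBayes. Leaving out replicates gave 3 to 16 higher and 0 to 2 lower in WT, and 5 to 19 higher and 3 to 7 lower in KO, where no filter gave 4 higher. Fewer arrays enter a fit that leaves some out, and more genes one with no filter. Counts with no replicate block are given without the share of all genes called by that fit, so they cannot be set beside it. Such a fit treats the arrays of a pair as separate although pair differences had been removed, so its p-values are too small. For the rest the cause was not tested. The median KO minus WT difference of the 45 genes changed sign in neither cytokine, while single genes that were not called did. Medians of IL-15 minus IL-2 were not recomputed. Leaving out replicates gave KO minus WT differences in IL-2 of -1.25 to 0.28 for Cenpf, -1.44 to 0.62 for Ncapg and -0.17 to 1.39 for Ndc80, and in IL-15 of -0.32 to 0.68 for Ndc80 and -0.41 to 1.17 for Ncapg. The KO effect in IL-15 minus that in IL-2 was then -0.09 to 1.44 for Cenpf, -0.25 to 1.81 for Ncapg, -1.12 to 0.15 for Bub1b, -0.90 to 0.03 for Tpx2 and -1.21 to 0.35 for Ndc80. IL-15 minus IL-2 was -0.20 to 0.16 for Espl1 in WT, and -0.04 to 0.43 for Tpx2 and -0.09 to 0.54 for Bub1b in KO. With the mean of all probe sets, Cenpe differed by -0.02 between genotypes in IL-15, Tpx2 by 0.02 in the KO effect, and Bub1b by -0.02 and Kif2c by -0.15 between cytokines in KO; Espl1 was at -0.25 between cytokines in WT after quantile normalization. Of the recomputed counts and medians, 131 stayed within 1.5 times or 1 SD of the reported value and 25 did not. Counts that were 0 and stayed 0 are among the 131. The SD was that of the pair medians, which in IL-2 were 0.70, 0.65 and 2.36, so that the margin there was wide. Of single genes, 893 recomputed values kept their sign and side of the threshold, 22 changed sign, 34 came to pass it and 26 no longer did. The pairing rests on the array numbers in the labels and on the equal sums of same-number arrays.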

Other observations

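Within the 45 mitosis genes, the annotated length of the gene from start to end went with the differences. Spearman's rho of gene length with KO minus WT was -0.71 in IL-2 and -0.15 in IL-15, and with IL-15 minus IL-2 it was 0.60 in WT and 0.73 in KO. Over 9379 tested genes with a length the same values were -0.17, 0.02, 0.23 and 0.38. The genes are points of the same arrays, and these comparisons share the IL-2 arrays. By the probe sets used, the 28 genes higher in all 3 IL-2 pairs had a median length of 14281.5 bases. The 12 higher in pair 3 alone had one of 41611 bases.

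Of the 45 genes, 24 had more than 1 probe set that reached the floor. The probe sets of a gene had the same sign of KO minus WT in 22 of 24 with IL-2 (not Kif11 and Smc2) and in 22 of 24 with IL-15 (not Cenpe and Smc4). For IL-15 minus IL-2 in WT they had the same sign in 23 of 24, the exception being Ncapg at 1.61 and -0.84. Their median range in IL-2 was 0.36. Of the probe sets that stood for the 45 genes, 7 carried the array maker's mark for possible cross-hybridisation.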
